A study of Mus musculus with 15 samples.

Results

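High-CD45 and low-CD45 myeloid cells of the brain of mice fed a western diet (WD) were compared gene by gene in 7 RNA-seq libraries, 3 of CD45hi cells and 4 of CD45lo cells. The libraries were picked by the diet given in the sample titles, out of 15 in the series. All came from wild-type male C57BL/6J mice that were 12 months old and had eaten the WD, a purified food with added corn syrup, more milk fat and protein and less fiber than chow, from 2 months of age. Cells were isolated from perfused brains, without olfactory bulb and cerebellum, and gated by FACS as CD45+CD11b+CD3e-, then parted by their level of CD45. *Ptprc*, *Itgam* and *Cd3e* encode the gated proteins and are therefore no finding between the groups. The other 8 libraries, 4 of CD45hi and 4 of CD45lo cells from chow-fed mice of the same strain, sex and age, shared the fit and are set beside the WD values at the end. The study gives its deposited counts as per animal, and the labels do not say which CD45hi and CD45lo libraries came from the same mouse.

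In the healthy brain most CD45lo myeloid cells are microglia, macrophages that settle in the brain during embryonic life and renew themselves there. They carry a set of homeostatic genes, such as the ADP receptor *P2ry12*, and depend on transcription factors such as *Sall1* and *Mef2c*. A gate on high CD45 can hold macrophages of the brain's borders (meninges, perivascular spaces and choroid plexus), monocytes, neutrophils, natural killer (NK) cells that carry CD11b, and microglia that have raised their CD45. These cells are told apart by their surface receptors, antigen presentation, chemokines and granule proteins, and the genes below are ordered by those roles. In sorted bulk RNA, fewer cells of a type and less RNA per cell cannot be told apart.

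The 7 libraries held between 11951412 and 17299313 estimated counts each, so that 3 counts, the level taken as the floor, corresponded to 0.165 to 0.282 cpm (counts per 1000000 library counts, with the library size scaled by TMM normalization). Between 14073 and 14551 genes had at least 1 count in a CD45hi library and between 16301 and 16798 in a CD45lo library. Mitochondrial genes took 17.9% to 20.5% of the counts in CD45hi libraries and 7.99% to 10.9% in CD45lo libraries. Most of this was mitochondrial ribosomal RNA, at 15.8% to 18.1% in CD45hi and 6.98% to 9.65% in CD45lo libraries. The CD45lo libraries lay close together in a principal component analysis of the 7 libraries, at 51.1 to 56.9 on the first component (32.8% of the variance) and 12.7 to 14.7 on the second (25.1%). CD45hi replicate 1 stood apart, at 99.6 on the second component against -77.8 and -76.2 for replicates 2 and 3. In replicate 1 the border macrophage markers summed to 2033 cpm, against 5169 and 3675 cpm in replicates 2 and 3, and the neuron markers to 157 cpm, against 10.1 and 13 cpm. *Meg3* was the most abundant neuron marker over the 7 libraries. The neuron gene *Rbfox3* had 25, 2 and 83 counts in CD45hi replicates 1, 2 and 3, so it was highest in replicate 3. Where leaving out a single WD library, or scaling by library totals in place of TMM, moved the number of calls in a list by more than 1.5 times, the number is given in brackets beside it, and calls of named genes that were lost without a single WD library are given with their FDR. For a direction with 0 calls, another number is given only where library totals gave 2 or more.

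**Figure D1:**
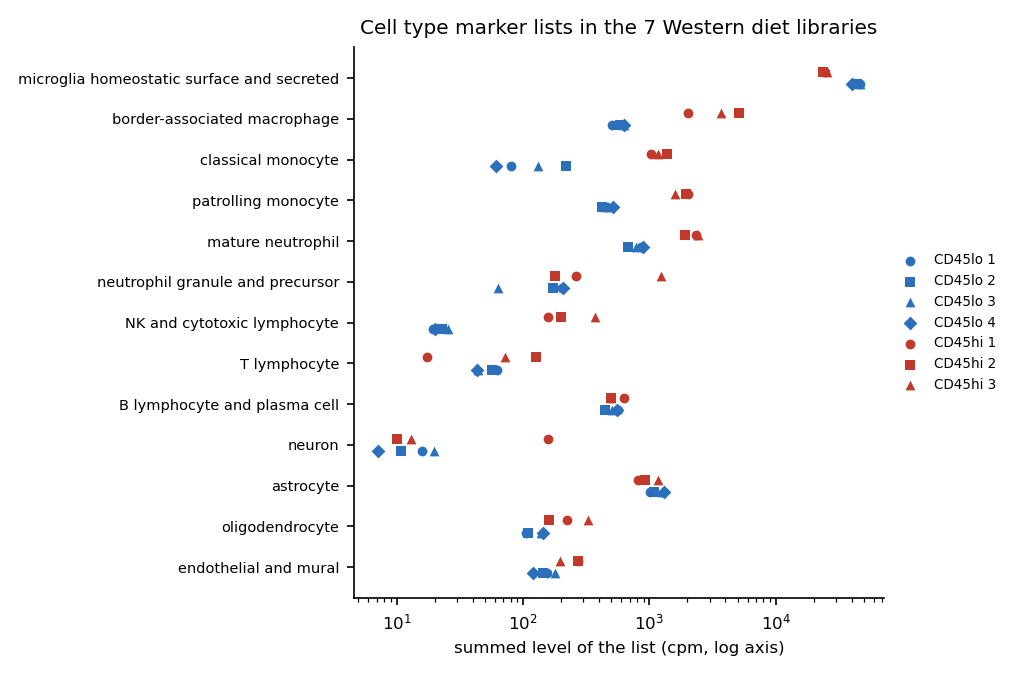
Summed level of each cell type marker list in the 7 WD libraries, in TMM-normalized cpm on a log axis, with 1 symbol per library (red, CD45hi; blue, CD45lo). The homeostatic microglia list is higher in all 4 CD45lo libraries, at 40517 to 46408 cpm, and the border macrophage, monocyte, mature neutrophil and NK lists are higher in all 3 CD45hi libraries.

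Genes higher in CD45hi cells were many and changed by large factors, whereas well-expressed genes that were lower in CD45hi cells changed by small ones. Of 14967 genes kept, 775 (5.18%) differed by more than 1.5-fold, 600 (4.01%) higher and 175 (1.17%) lower in CD45hi cells (edgeR glmTreat, FDR under 0.05). These shares are the background against which the lists below are read. The median log2 fold change of CD45hi over CD45lo cells was 3.18 among the higher genes and -4.46 among the lower genes, but 75 of the 175 lower genes had no CD45hi library above 3 counts. Of the called genes whose higher group averaged 50 cpm or more, 371 were higher and 48 lower, and the lower ones had a median of -1.50. The libraries of the groups did not overlap for 574 of the 600 higher genes and for all 175 lower genes, and over all genes kept this held for 10% (above) and 13.4% (below). The balance of directions depended on the scaling: with library totals in place of TMM, the median of all genes shifted by -0.31, and 411 genes were higher and 340 lower, or 54.7% higher against 77.4% with TMM. Changes are given below on the TMM scale, that is, relative to that median. Without CD45hi replicate 1 there were 557 higher and 203 lower genes, and without CD45lo replicate 1 or 3 the total was 515 and 513. The number of lower genes moved most with single libraries. It was 267, 264 and 263 without CD45hi replicate 2, CD45hi replicate 3 and chow CD45hi replicate 4, and 93, 107, 93 and 109 without CD45lo replicates 1, 2, 3 and 4.

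Beyond the genes the study itself discusses, the 12 highest genes, taken from those that averaged 50 cpm or more and whose groups did not overlap, held a lymphoid transcription factor, receptors, adhesion molecules and an enzyme of blood pressure control. *Ikzf3* (Aiolos), the lymphoid factor, was at 15.3, 104 and 32.3 cpm in CD45hi and 0, 0, 0 and 0 cpm in CD45lo libraries. No CD45lo library had a count, so that CD45hi cells were at least 249-fold higher when the CD45lo group is set to the floor of 3 counts per library, and CD45hi replicate 2 was the highest (glmTreat FDR = 0.00283). *Treml4*, a TREM-like receptor of patrolling monocytes and splenic macrophages, was at 55.8, 63.9 and 65.2 cpm in CD45hi and 0.197, 0.297, 0.275 and 0.227 cpm in CD45lo libraries. All CD45lo libraries were near or at the level of 3 counts and all CD45hi libraries were close to each other (log2 fold change 7.90 ± 0.89, glmTreat FDR = 2.5e-05). *Ace*, which encodes angiotensin-converting enzyme, was at 163, 161 and 42.9 cpm in CD45hi and 3.54, 1.11, 2.69 and 0.985 cpm in CD45lo libraries. CD45hi replicate 3 was the lowest of its group and still far above every CD45lo library (log2 fold change 5.86 ± 0.72, glmTreat FDR = 7.54e-05). The pattern recognition receptor *Clec4e*, the lectin *Mgl2*, the SLAM receptor *Slamf7*, the signaling adaptor *Stap1*, the matrix glycoprotein *Emilin2* and the MHC class II chain *H2-Eb1* were among the 12, with log2 fold changes of 6.36, 6.17, 6.31, 6.00, 5.84 and 5.85. So were the cell adhesion molecules *Alcam* and *L1cam*. *Alcam* was at 73.5, 129 and 131 cpm in CD45hi and 3.34, 4.01, 1.37 and 0.0758 cpm in CD45lo libraries. The libraries did not overlap, and CD45lo replicate 4 was the lowest (log2 fold change 5.66 ± 0.84, glmTreat FDR = 0.000489). *L1cam* was at 56.2, 41.4 and 78.3 cpm in CD45hi and 0.918, 1.93, 0.878 and 0.985 cpm in CD45lo libraries, without overlap (log2 fold change 5.63 ± 0.81, glmTreat FDR = 0.000359), but its estimated counts were not whole in any of the 7 libraries, so part of its reads also matched other genes.

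The 12 lowest by the same rule changed far less. *Col6a3*, a chain of collagen VI, was at 3.01, 10.9 and 13.8 cpm in CD45hi and 74.2, 88.2, 70.7 and 44 cpm in CD45lo libraries. Every CD45hi library was below every CD45lo library, and CD45hi replicate 1 was the lowest (log2 fold change -2.90 ± 0.59, glmTreat FDR = 0.0102). *Upk1b*, which encodes the tetraspanin uroplakin 1B, was at 16.9, 21.3 and 29.9 cpm in CD45hi and 135, 131, 152 and 129 cpm in CD45lo libraries. The CD45lo libraries lay within a narrow range, with all CD45hi libraries well below it (log2 fold change -2.59 ± 0.30, glmTreat FDR = 8.56e-05). *Pald1*, a phosphatase-domain protein known from endothelium, was at 33.4, 49 and 27.8 cpm in CD45hi and 156, 137, 169 and 142 cpm in CD45lo libraries, again without overlap (log2 fold change -2.04 ± 0.25, glmTreat FDR = 0.000305). The small GTPase *Rab39*, the kinase inhibitor *Camk2n1* and the ubiquitin ligase *Rnf144b* had log2 fold changes of -2.13, -1.79 and -1.68. The call of *Camk2n1* was lost without CD45hi replicate 2 or 3 or without CD45lo replicate 1 or 4 (FDR = 0.0502 to 0.0616). The call of *Rnf144b* was lost without CD45hi replicate 3 or without CD45lo replicate 2 or 3 (FDR = 0.0638 to 0.0766). *Ptprm*, *Cxxc5* and *Prkab1* were also among the 12. Leaving out a single library gave them log2 fold changes of -2.38 to -1.46, -2.03 to -1.46 and -1.82 to -1.74. *Ptprm* lost its call without CD45hi replicate 1 or 2 or any CD45lo library (glmTreat FDR = 0.0548 to 0.108). *Prkab1* lost its call without any single WD library (glmTreat FDR = 0.0638 to 0.0834).

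**Figure D2:**
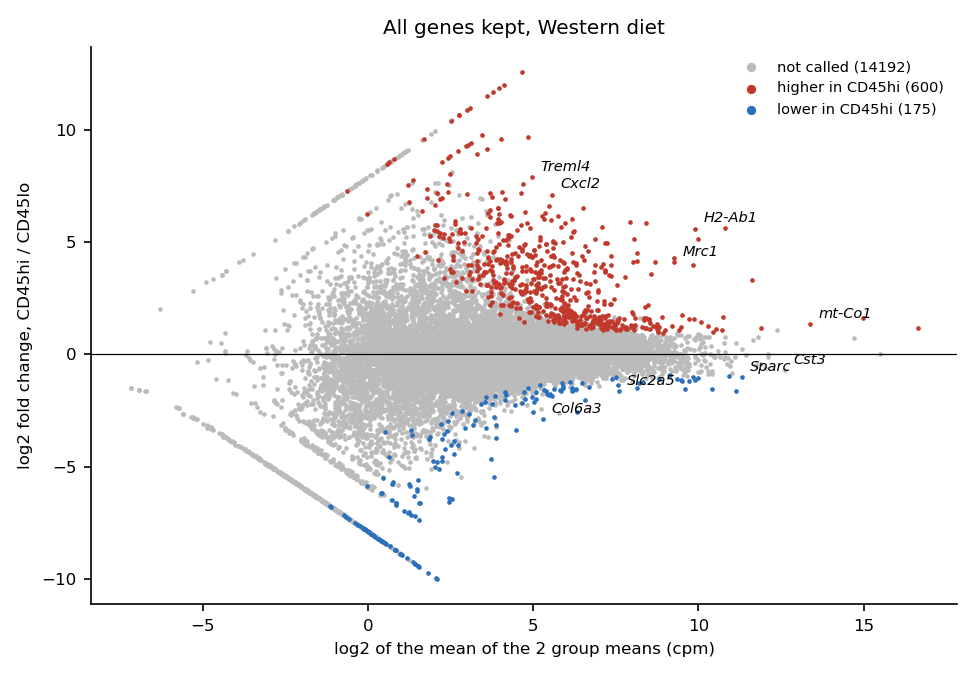
Each point is 1 of the 14967 genes kept, with the log2 of its mean level over the 2 groups in cpm on the horizontal axis and the log2 fold change of CD45hi over CD45lo cells on WD on the vertical axis (red, 600 called higher; blue, 175 called lower; grey, not called). At high levels the higher genes reach log2 fold changes above 5, as for *H2-Ab1* at 5.60, whereas the lower genes stay near -1 to -3, as for *Col6a3* at -2.90, and the diagonal edges are genes with no counts in 1 group.

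Homeostatic genes of microglia were lower in CD45hi cells, but not absent from them. Of 35 homeostatic surface and secreted genes kept, 12 were called lower (25 with library totals) and none higher. The median of the list was -0.98, and for 31 of the 35 members every CD45hi library was below every CD45lo library. The list summed to 23592 to 25418 cpm in CD45hi libraries and 40517 to 46408 cpm in CD45lo libraries. Beyond the purinergic receptors and *Tmem119*, the lower members included *Slc2a5*, the fructose transporter GLUT5, at 108, 86 and 86.7 cpm in CD45hi and 315, 281, 307 and 271 cpm in CD45lo libraries. The 2 groups were far apart relative to their spread (log2 fold change -1.65 ± 0.17, glmTreat FDR = 0.0001). *Gpr56*, an adhesion G protein-coupled receptor of microglia, was at 96.9, 125 and 221 cpm in CD45hi and 430, 337, 480 and 424 cpm in CD45lo libraries. It varied most among CD45hi libraries, with replicate 3 nearest to the CD45lo range (log2 fold change -1.50 ± 0.25, glmTreat FDR = 0.00775). *Olfml3*, a secreted glycoprotein, was at 434, 454 and 429 cpm in CD45hi and 1045, 1023, 1050 and 883 cpm in CD45lo libraries, with all CD45hi libraries alike and below every CD45lo library (log2 fold change -1.19 ± 0.16, glmTreat FDR = 0.00504). The secreted matrix protein *Sparc* had a log2 fold change of -1.03 (glmTreat FDR = 0.0115, or 0.0556 without CD45hi replicate 2).

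Transcription factors such as SALL1 keep the homeostatic genes of microglia active. None of the 18 microglial transcription factors kept was called in either direction. Their median was -0.67, with -0.92 for *Sall1*, -0.65 for *Mef2c*, -0.26 for the myeloid factor *Spi1* (PU.1) and -0.21 for *Irf8*, and with library totals in place of TMM 4 of them were called lower. General myeloid genes differed little: the CSF1 receptor *Csf1r* was at -0.49, the calcium-binding protein *Aif1* (IBA1) at -0.10 and the cathepsin *Ctss* at -0.13, none of them called. The TGF-beta pathway, on which microglia depend, had a median of -0.07 over 27 members kept, with the receptor *Tgfbr1* at -0.85 (not called) and the induced matrix protein *Tgfbi* at 2.35 as the 1 member called. With library totals 3 members of this pathway were called lower.

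Purinergic receptors and the enzymes that break down extracellular nucleotides sense and clear ATP and ADP released by other cells. Of 17 purinergic receptors and ectonucleotidases kept, 1 was called higher and 4 lower. *Entpd1* (CD39), which removes phosphates from extracellular ATP, was at 354, 410 and 485 cpm in CD45hi and 917, 817, 944 and 842 cpm in CD45lo libraries. Every CD45hi library was below every CD45lo library (log2 fold change -1.08 ± 0.16, glmTreat FDR = 0.0174), and the call was lost without CD45hi replicate 1 (FDR = 0.0691) and without CD45lo replicate 3 (FDR = 0.0512).

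Genes of border-associated macrophages were higher in CD45hi cells, most of them by large factors. Among the 20 border macrophage genes kept, 16 were called higher and none lower. The median of the list was 3.85, and in no called member did the libraries overlap. Its summed level was 2033 to 5169 cpm in CD45hi and 508 to 631 cpm in CD45lo libraries. *Mrc1* (the mannose receptor CD206) was at 456, 1912 and 1135 cpm in CD45hi and 41.4, 96.9, 78.6 and 56.6 cpm in CD45lo libraries. CD45hi replicate 1 was the lowest of the 3 and above every CD45lo library (log2 fold change 4.09 ± 0.41, glmTreat FDR = 1.19e-05). *Cd163*, the receptor for haptoglobin-bound hemoglobin, was at 16.5, 169 and 259 cpm in CD45hi and 6.03, 10.5, 14.4 and 6.89 cpm in CD45lo libraries. CD45hi replicate 1 was close to the highest CD45lo library and the other two were far above it (log2 fold change 3.97 ± 0.58, glmTreat FDR = 0.000517). *Lyve1*, a hyaluronan receptor of perivascular macrophages, was at 13.2, 56.9 and 97.9 cpm in CD45hi and 1.31, 0.371, 6.75 and 2.12 cpm in CD45lo libraries, with replicate 1 again the lowest of CD45hi (log2 fold change 4.38 ± 0.74, glmTreat FDR = 0.00167). *Cd209g*, a C-type lectin, was at 60.6, 36.8 and 55.4 cpm in CD45hi and 0.197, 0.297, 0.384 and 0.152 cpm in CD45lo libraries, and here CD45hi replicate 1 was not the lowest (log2 fold change 7.56 ± 0.95, glmTreat FDR = 8.31e-05), though its counts were not whole in any of the 7 libraries. *Cbr2*, a carbonyl reductase, was at 103, 77.5 and 102 cpm in CD45hi and 2.56, 5.12, 2.85 and 1.29 cpm in CD45lo libraries, with even CD45hi levels (log2 fold change 4.99 ± 0.48, glmTreat FDR = 7.95e-06). Of the 16 members called, 11 were lowest in CD45hi replicate 1, where the same held for 185 of the 600 genes called higher. The median ratio of the highest to the lowest CD45hi library was 2.52 for these members and 2.08 for all higher genes.

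Genes of blood monocytes, neutrophils and NK cells were also higher in CD45hi cells. Of 19 classical monocyte genes kept, 11 were called higher and none lower. Among the 19 patrolling monocyte genes kept, 13 were called higher and none lower. Of 27 mature neutrophil genes kept, 19 were called higher and none lower. *Ly6g*, whose product the study stained to mark granulocyte-like cells, had 0, 0 and 33 counts in CD45hi libraries. In CD45lo libraries it had 18, 22, 0 and 5 counts, so the groups overlapped. Among the 26 NK and cytotoxic lymphocyte genes kept, 10 were called higher (5 without CD45lo replicate 1, 2 or 3, 6 without CD45lo replicate 4) and none lower. The medians of the 4 lists were 3.29, 4.60, 4.43 and 6.93, the last at 3.88 when genes at the floor in CD45lo libraries are set to their bound. For the monocyte lists the summed levels were 1031 to 1372 and 1592 to 2034 cpm in CD45hi against 60.8 to 220 and 419 to 518 cpm in CD45lo libraries. They were 1911 to 2439 against 675 to 899 cpm for the mature neutrophil list and 157 to 371 against 19.4 to 25.7 cpm for the NK list. The most abundant members were *Ccr2* and *Klf2* of the classical and patrolling monocyte lists, *Csf3r* of the mature neutrophil list and *Cd244* of the NK list. What part of a sum came from cells of the named type was not tested. Limma-voom called 7 members of the classical monocyte list.

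Some members were carried evenly by the 3 CD45hi libraries and others were not. *Cxcr2*, the neutrophil receptor for CXC chemokines, was at 333, 221 and 232 cpm in CD45hi and 18.4, 16.2, 13.6 and 17.1 cpm in CD45lo libraries. All CD45hi libraries were far above the CD45lo libraries (log2 fold change 4.00 ± 0.24, glmTreat FDR = 6.02e-08). *Hdc*, which makes histamine and is known from neutrophils, mast cells and basophils, was at 97.6, 86.3 and 59.4 cpm in CD45hi and 2.23, 1.26, 4.12 and 3.18 cpm in CD45lo libraries, also evenly (log2 fold change 4.90 ± 0.57, glmTreat FDR = 5.21e-05). *Trem1*, a receptor that amplifies neutrophil and monocyte activation, was at 30.6, 34.7 and 26.5 cpm in CD45hi and 0.393, 1.04, 0.22 and 0.379 cpm in CD45lo libraries (log2 fold change 5.92 ± 0.54, glmTreat FDR = 3.15e-06). *Klra2*, a Ly49 family receptor on the classical monocyte list, was at 118, 196 and 125 cpm in CD45hi and 1.97, 5.42, 5.6 and 0.0758 cpm in CD45lo libraries. CD45lo replicate 4 was near 0 (log2 fold change 5.48 ± 0.72, glmTreat FDR = 0.000156). *Clec4d*, a lectin of neutrophils and monocytes, was at 50.3, 9.59 and 30.6 cpm in CD45hi and 0.0656, 0.742, 0.275 and 0.227 cpm in CD45lo libraries, with CD45hi replicate 2 the lowest of its group and above every CD45lo library (log2 fold change 6.51 ± 1.08, glmTreat FDR = 0.0012). Over the 19 called members of the mature neutrophil list, the highest CD45hi library exceeded the lowest by a median of 3.72 times, and 13 were lowest in replicate 2. For the 10 called NK members the median was 5.71 times, against 2.08 for all 600 genes called higher. Of 17 neutrophil granule and precursor genes kept, 3 were called higher (1 without CD45hi replicate 3 or CD45lo replicate 1, 3 or 4 or with library totals) and none lower. Their summed level was 1248 cpm in CD45hi replicate 3 but 263 and 179 cpm in replicates 1 and 2, against 63.6 to 207 cpm in CD45lo libraries. The granule enzyme gene *Mpo* had 1, 1 and 567 counts in CD45hi and 189, 53, 0 and 245 in CD45lo libraries and *Elane* had 0, 0 and 4 counts in CD45hi and 36, 1, 1 and 46 in CD45lo libraries, so these overlapped.

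Markers of lymphocytes and of non-myeloid brain cells had few or no calls. Among the 13 T lymphocyte genes kept, 1 was called higher (2 without CD45hi replicate 1 or 3, 0 without CD45hi replicate 2 or CD45lo replicate 1, 2 or 4) and none lower. Of 15 B lymphocyte and plasma cell genes kept, 2 were called higher (1 without CD45hi replicate 1 or 3, 0 without any 1 CD45lo library) and none lower. Cells with CD3e on their surface were gated out, and the T cell receptor chains *Cd3e* and *Cd3g* had 0 counts in all 7 libraries, which allows at most 3 counts in each, that is, 0.165 to 0.282 cpm. The B cell gene *Ms4a1* (CD20) had 8, 166 and 8 counts in CD45hi and 0, 0, 0 and 0 in CD45lo libraries. The NK receptor *Ncr1* had 0, 15 and 25 counts in CD45hi and 0, 0, 0 and 0 in CD45lo libraries. Of 9 neuron markers, 12 astrocyte markers, 14 oligodendrocyte markers and 18 endothelial and mural markers kept, 0, 0, 1 and 1 were called higher and none lower. The endothelial call was *Flt1*, a VEGF receptor, at 2.46, and it was lost with library totals. The oligodendrocyte count was 0 without CD45hi replicate 1 or 3, without CD45lo replicate 1, 2 or 3 and with library totals. The call of *Flt1* was lost without CD45hi replicate 1 or without CD45lo replicate 1, 2, 3 or 4 (FDR = 0.0518 to 0.0977). The summed levels of these 4 lists were 10.1 to 157, 811 to 1176, 162 to 327 and 195 to 272 cpm in CD45hi against 7.12 to 19.9, 1013 to 1301, 105 to 145 and 120 to 178 cpm in CD45lo libraries. The families below were measured in the same libraries, and the part that border macrophages, monocytes, neutrophils and NK cells had in their values was not tested.

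Genes of antigen presentation by MHC class II were among the highest in CD45hi cells. MHC class II molecules carry peptides to CD4 T cells, and their genes are switched on together by the coactivator *Ciita*, which acts through factors bound to a shared promoter module whose Y box is bound by NF-Y. Y boxes were searched as CTGATTGG, on both strands, in the 250 bases upstream of the RefSeq start of each gene (GRCm38.p6, the mm10 build). The motif was in 4.07% of all 27025 promoters, and in 3 of the 11 class II members with a promoter in the table. The called members among these 3 are shown here 5′ to 3′ on the gene's strand with the motif in capitals because they are among the highest genes of the comparison. The *H2-Aa* stretch is chr17:34287841-34287900 on the minus strand and the *H2-Eb1* stretch chr17:34305779-34305838 on the plus strand.
H2-Aa: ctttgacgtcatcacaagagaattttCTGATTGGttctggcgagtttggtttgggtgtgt
H2-Eb1: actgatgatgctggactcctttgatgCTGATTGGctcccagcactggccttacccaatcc

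Among the 16 MHC class II genes kept, 5 were called higher and none lower. *Ciita* was at 7.81, 38.4 and 30.8 cpm in CD45hi and 0, 1.11, 0.275 and 0.0758 cpm in CD45lo libraries. CD45lo replicate 2 was the highest of its group, and CD45hi replicate 1 was the lowest of its group (log2 fold change 6.12 ± 0.96, glmTreat FDR = 0.000795). *H2-Eb1* was at 713, 752 and 539 cpm in CD45hi and 7.93, 13.2, 15.9 and 9.17 cpm in CD45lo libraries, with no overlap and even CD45hi levels (log2 fold change 5.85 ± 0.38, glmTreat FDR = 8.75e-08). *H2-Ab1* and *H2-Aa*, the chains of the I-A molecule, had log2 fold changes of 5.60 and 5.15. The 3 genes lie within 0.059 Mb of chromosome 17 (chr17:34257689-34316674). The peptide-loading subunit *H2-DMa*, at 0.95, was not called, and the list's median was 0.96.

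MHC class I molecules show peptides of the cell's own proteins to CD8 T cells and NK cells. Of 23 MHC class I and immunoproteasome genes kept, 5 were called higher and none lower. *H2-D1* and *H2-K1*, the classical class I heavy chains, had log2 fold changes of 1.76 and 1.59. The non-classical *H2-Q7* was at 217, 273 and 304 cpm in CD45hi and 51.3, 34.9, 53.7 and 84.9 cpm in CD45lo libraries, without overlap (log2 fold change 2.24 ± 0.38, glmTreat FDR = 0.00388). The counts of 4 of the 5 called members were not whole in any of the 7 libraries, since class I genes share sequence, so the levels of single members are uncertain. The peptide transporter *Tap1* and the immunoproteasome subunit *Psmb8* were at 1.09 and 1.01, not called. Among the 25 costimulation and checkpoint genes kept, 4 were called higher (1 without CD45hi replicate 1 or CD45lo replicate 2, 2 without CD45lo replicate 1, 3 or 4) and none lower. The called members *Slamf7*, *Cd244* and *Cd48* are SLAM receptors within 0.146 Mb of chromosome 1, and the costimulator *Cd86* was at -0.30, not called.

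Interferon-stimulated genes were higher in CD45hi cells as a list. Type I interferons act through STAT and IRF factors that bind the interferon-stimulated response element (ISRE) and switch on antiviral effectors. Of 35 type I interferon response genes kept, 15 were called higher (9 without CD45hi replicate 1 or with library totals, 8 without CD45lo replicate 3 or 4) and none lower. With a replicate block, 5 were called higher by the numbers of the titles and 6 by those of the deposited files. The median was 1.67, 31 of the 35 members had a positive log2 fold change, and for 24 every CD45hi library was above every CD45lo library. An ISRE core, searched on both strands as GAAA repeated after any 2 bases in the 250 bases before the start, was in 3.03% of all promoters, in 12 of the 26 list members with a promoter in the table, and in 4 of the 10 called ones. Those 4 are shown as the called members that hold the core, with matches in capitals, each as the 60 bases of the gene's strand at the place named in the next sentence. The places are chr19:34640760-34640819 (plus strand) for *Ifit1*, chr12:26456538-26456597 (minus) for *Rsad2*, chr5:120777700-120777759 (minus) for *Oas3* and chr8:61928027-61928086 (plus) for *Ddx60*.
Ifit1: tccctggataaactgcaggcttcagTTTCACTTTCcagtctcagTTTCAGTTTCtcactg
Rsad2: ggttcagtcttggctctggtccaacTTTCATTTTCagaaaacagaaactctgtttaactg
Oas3: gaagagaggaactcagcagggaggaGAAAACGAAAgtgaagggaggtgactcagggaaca
Ddx60: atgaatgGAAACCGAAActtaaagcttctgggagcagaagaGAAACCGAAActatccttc

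*Ifit1*, which binds foreign RNA, was at 33, 11.5 and 23.8 cpm in CD45hi and 2.82, 6.23, 4.56 and 1.52 cpm in CD45lo libraries. Its libraries did not overlap, though CD45hi replicate 2 was near the CD45lo range (log2 fold change 2.59 ± 0.60, glmTreat FDR = 0.0247). The call of *Ifit1* was lost without CD45hi replicate 1 or without CD45lo replicate 1, 3 or 4 (FDR = 0.0555 to 0.0828). *Rsad2* (viperin) was at 40.6, 21.9 and 31.1 cpm in CD45hi and 1.84, 5.64, 2.91 and 3.64 cpm in CD45lo libraries, without overlap (log2 fold change 3.15 ± 0.58, glmTreat FDR = 0.00434). *Oas3*, an oligoadenylate synthetase that activates RNase L, was at 129, 79.6 and 55.4 cpm in CD45hi and 1.9, 4.75, 7.25 and 2.73 cpm in CD45lo libraries, with its counts not whole in any library (log2 fold change 4.40 ± 0.63, glmTreat FDR = 0.00037). *Oas2* was at 72.1, 141 and 86.7 cpm in CD45hi and 5.9, 10.5, 4.28 and 5.38 cpm in CD45lo libraries, all whole counts, with every CD45hi library above every CD45lo library (log2 fold change 3.94 ± 0.38, glmTreat FDR = 8.81e-06). The helicase *Ddx60* had 1.88 and the regulator *Irf7* 3.05. *Irf7* and *Rsad2* lost their calls with either replicate block. The glmTreat FDR was then 0.173 and 0.109 for *Irf7* and 0.0632 and 0.0596 for *Rsad2*. The call of *Ddx60* was lost without CD45hi replicate 1 or without CD45lo replicate 3 or 4 (FDR = 0.055 to 0.0608). Other core members were not called, among them *Isg15* at 0.07, *Stat2* at 0.85, *Bst2* at 1.48 and the RNA sensor *Ifih1* at 0.58. *Isg15* and *Bst2* hold an ISRE core in the same window. So did *Stat2*, and a match is a description of the letters and no sign that a factor bound.

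Families of interferon-inducible proteins encoded in clusters differed in how many of their members were higher. Among the 8 PYHIN genes kept, 6 were called higher and none lower. The called members of these DNA-binding proteins are encoded within 0.401 Mb of chromosome 1 (chr1:173630917-174031810). *Mndal* was at 236, 273 and 167 cpm in CD45hi and 3.08, 16.1, 4.89 and 1.74 cpm in CD45lo libraries, with every CD45hi library above every CD45lo library (log2 fold change 5.13 ± 0.63, glmTreat FDR = 8.13e-05). The counts of all 6 called members were not whole in at least 1 library, and of 4 in all 7, so that reads are shared in the family. Of 6 Ifitm genes kept, 4 were called higher and none lower. *Ifitm3*, which blocks viral entry into cells, was at 587, 496 and 374 cpm in CD45hi and 16.8, 44, 33 and 19 cpm in CD45lo libraries. The groups were far apart and CD45lo replicate 1 was the lowest (log2 fold change 4.10 ± 0.37, glmTreat FDR = 3.75e-06). *Ifitm2* had a log2 fold change of 4.08, and the 4 called members lie within 0.0631 Mb of chromosome 7. Among the 7 Schlafen genes kept, 4 were called higher and none lower. *Slfn5* was at 300, 111 and 227 cpm in CD45hi and 9.05, 32.9, 26.8 and 19.1 cpm in CD45lo libraries, the CD45hi libraries spreading widely but above every CD45lo library (log2 fold change 3.27 ± 0.40, glmTreat FDR = 0.000128), and its counts were not whole in any library. *Slfn1*, of a family that restrains lymphocyte and myeloid proliferation, had a log2 fold change of 5.53. Of 17 genes of guanylate-binding and immunity-related GTPases kept, 4 were called higher (2 without CD45lo replicate 1) and none lower. The guanylate-binding protein *Gbp2*, at 0.96, was not called. None of the 7 Gimap genes kept was called in either direction. The Gimap genes are expressed mainly in lymphocytes, and their median was -0.34.

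Several chemokines and cytokines were called higher in CD45hi cells. NF-kappaB is held in the cytoplasm by inhibitors such as *Nfkbia* and, once freed, induces chemokines, cytokines and its own inhibitors. An NF-kappaB motif, GGGA followed by any 1 base and TTTCC, searched on both strands in the 250 bases before the start, was in 0.337% of all promoters. It was in 2 of 21 promoters of the list of NF-kappaB members and feedback genes and in 3 of 10 of the CXC, C and CX3C chemokines. The stretches of the called members are chr12:55492648-55492707 (minus strand) for *Nfkbia* and chr5:90903777-90903836 (plus strand) for *Cxcl2*, with the motif in capitals.
Nfkbia: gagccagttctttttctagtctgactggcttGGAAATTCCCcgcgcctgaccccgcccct
Cxcl2: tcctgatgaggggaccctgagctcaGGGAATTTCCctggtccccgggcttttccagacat

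Of 12 CXC, C and CX3C chemokines kept, 5 were called higher and none lower. *Cxcl2*, which draws neutrophils, was at 76.8, 76.4 and 132 cpm in CD45hi and 0.393, 0.223, 0.22 and 1.97 cpm in CD45lo libraries. CD45lo replicate 4 was the highest of its group and all CD45hi libraries were far above it (log2 fold change 7.11 ± 0.65, glmTreat FDR = 3.13e-06). *Pf4* (CXCL4), of platelets and macrophages, had 4.32, and the scavenger chemokine *Cxcl16* 1.96. Among the 15 CC chemokines kept, 8 were called higher (5 without CD45lo replicate 1) and none lower. The monocyte chemokine *Ccl7* was at 6.87, 28 and 44.4 cpm in CD45hi and 1.77, 0.519, 1.59 and 0.53 cpm in CD45lo libraries, with CD45hi replicate 1 the lowest of its group and above every CD45lo library (log2 fold change 4.56 ± 0.68, glmTreat FDR = 0.000522). *Ccl8*, *Ccl12* and *Ccl2* had log2 fold changes of 6.77, 2.00 and 1.85, and 6 of the called genes lie within 1.56 Mb of chromosome 11. The call of *Ccl8* was lost without CD45lo replicate 1, 3 or 4 (FDR = 0.066 to 0.0725). *Ccl3* and *Ccl4*, made by activated microglia, were at 0.90 and 0.42 and were not called. Of 17 chemokine receptors kept, 5 were called higher and 1 lower (2 with library totals). Higher members were *Cxcr4* at 5.02, *Cxcr2*, *Ccr2* at 3.73, *Ccr1* at 3.39 and *Ccrl2* at 2.25, and the lower one was the fractalkine receptor *Cx3cr1* at -0.99.

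Among the 19 genes of the interleukin-1 family and its receptors kept, 5 were called higher and none lower. *Il1b* was at 644, 426 and 380 cpm in CD45hi and 8.65, 9.94, 6.09 and 7.42 cpm in CD45lo libraries. The CD45lo libraries were alike and every CD45hi library was above them (log2 fold change 5.91 ± 0.41, glmTreat FDR = 2.1e-07). *Il1rn*, the natural antagonist of the IL-1 receptor, was at 62.1, 49.1 and 26.8 cpm in CD45hi and 0.459, 4.01, 1.26 and 0.985 cpm in CD45lo libraries, likewise without overlap (log2 fold change 4.78 ± 0.74, glmTreat FDR = 0.000789), so the cytokine and its antagonist were both higher. Of 26 NF-kappaB members and feedback genes kept, 4 were called higher and none lower. The inhibitor *Nfkbia* was at 175, 162 and 162 cpm in CD45hi and 35.2, 29.5, 43.6 and 40.7 cpm in CD45lo libraries. The groups were each within a narrow range and did not overlap (log2 fold change 2.16 ± 0.28, glmTreat FDR = 0.000406). *Nfkbiz*, an atypical inhibitor that also activates a subset of genes, was at 551, 530 and 672 cpm in CD45hi and 107, 114, 159 and 136 cpm in CD45lo libraries, without overlap (log2 fold change 2.18 ± 0.21, glmTreat FDR = 2.59e-05). Among the 29 immediate early genes kept, 6 were called higher and none lower. *Nr4a1*, an orphan nuclear receptor needed by patrolling monocytes, was at 177, 227 and 174 cpm in CD45hi and 8.85, 7.42, 6.75 and 8.71 cpm in CD45lo libraries. Both groups were even and far apart (log2 fold change 4.60 ± 0.35, glmTreat FDR = 6.05e-07). The other called members were *Nr4a2*, *Gadd45b*, *Fosl2*, *Ier3* and *Zfp36*. *Fos*, *Jun*, *Egr1* and *Jund*, at 1.12, 0.24, 0.69 and 0.39, were not called. Of the 29 members 26 had a positive log2 fold change, and the median was 0.69. The list summed to 15408 to 18585 cpm in CD45hi and 7972 to 13897 cpm in CD45lo libraries. Tissue handling is known to induce early genes, and its part in these values was not tested. Of 25 genes of the TNF superfamily and its receptors kept, 1 was called higher (0 without CD45lo replicate 2 or 3 or with library totals) and none lower. The called member was *Tnf* at 1.97, lost without CD45lo replicate 2 (FDR = 0.0582) and without CD45lo replicate 3 (FDR = 0.0625). None of the 8 SOCS genes kept was called in either direction.

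The prostaglandin pathway showed opposite changes of its 2 cyclooxygenases. *Ptgs2* (COX-2), the inducible enzyme, was at 98.8, 98.6 and 79.4 cpm in CD45hi and 2.16, 1.48, 2.14 and 0 cpm in CD45lo libraries. CD45lo replicate 4 had no counts and every CD45hi library was far above the CD45lo libraries (log2 fold change 5.97 ± 0.93, glmTreat FDR = 0.000742). *Ptgs1* (COX-1), the constitutive enzyme and a gene of resting microglia, was at 423, 533 and 365 cpm in CD45hi and 1063, 1041, 1021 and 807 cpm in CD45lo libraries. Here every CD45hi library was below every CD45lo library (log2 fold change -1.16 ± 0.15, glmTreat FDR = 0.00623). Of 21 eicosanoid enzymes kept, 4 were called higher and 1 lower (2 without CD45hi replicate 2, 3 with library totals). The lipoprotein-bound phospholipase *Pla2g7*, at 3.42, and *Cbr2* were among the higher ones, and *Alox5*, the first enzyme of leukotriene synthesis, was at 0.85 and not called. Among the 26 chemoattractant and lipid mediator receptors kept, 3 were called higher (1 without CD45lo replicate 3) and none lower. The prostaglandin E2 receptor *Ptger4* was at 3.69.

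Surface receptors of myeloid cells included families with large medians. Of 34 C-type lectins kept, 18 were called higher and none lower. Their median was 3.94, and of the 18 called members, 9 had counts that were not whole in at least 1 library, 2 of them in all 7. C-type lectins sense sugars of microbes and dying cells. Beside those named above, *Clec4d* had 6.51, *Clec10a* 4.90 and *Cd209a* 4.13. Among the 19 leukocyte immunoglobulin-like and paired receptors kept, 10 were called higher (6 without CD45lo replicate 1 or 3) and none lower. Paired receptors bind like ligands through activating or inhibiting members. Of the 10 called members, 10 had counts that were not whole in at least 1 library, 4 of them in all 7. *Gp49a* and *Lilrb4*, near-identical copies, share reads and count as 1 signal. *Pirb*, an inhibitory receptor, was at 2.26 and the activating *Sirpb1b* at 5.57. Of 7 CD300 genes kept, 5 were called higher (3 without CD45lo replicate 1, 3 or 4) and none lower. Of the 5 called members, 3 had counts that were not whole in at least 1 library, 0 of them in all 7. Among the 6 TREM genes kept, 3 were called higher and none lower. The higher members *Treml4*, *Trem1* and *Trem3* lie within 0.0426 Mb of chromosome 17, and *Trem2*, the lipid-sensing receptor of microglia, was at -0.85, not called, with its adaptor *Tyrobp* at 0.88. Of 9 Ms4a genes kept, 4 were called higher and none lower. *Ms4a7*, a gene of border macrophages, was at 3.76 and *Ms4a6c* at 2.88, and all 4 called members had counts that were not whole in at least 1 library.

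Other receptor families differed in how many of their members were called. Among the 26 Toll-like receptors and adaptors kept, 2 were called higher (1 with library totals) and 1 lower (0 without CD45hi replicate 2 or 3 or CD45lo replicate 1, 2 or 3). *Tlr8*, an endosomal RNA sensor, was at 136, 96.3 and 58.4 cpm in CD45hi and 1.11, 8.01, 2.14 and 1.29 cpm in CD45lo libraries. All CD45hi libraries were far above the CD45lo libraries (log2 fold change 4.95 ± 0.70, glmTreat FDR = 0.000308). *Tlr4* was at -0.36 and *Tlr7* at -0.10, not called, and the median of -0.03 was -0.35 with library totals. Of 27 genes of cytosolic sensors and the inflammasome kept, 2 were called higher and none lower. The called members were *Nlrc4* at 6.02 and *Zbp1* at 3.73, with *Nlrp3* at 0.59. Among the 11 Fc receptors kept, 1 was called lower (2 without CD45hi replicate 2, 0 without CD45hi replicate 3 or CD45lo replicate 1, 2 or 3) and none higher. Of 26 complement genes kept, 5 were called higher and 1 lower (0 without any 1 CD45hi library or CD45lo replicate 2, 3 or 4). The initiator *C1qa*, made by microglia, was at -0.63 and not called, while the alternative pathway's properdin gene *Cfp*, at 4.16, and *C4b*, at 3.41, were higher. The call of *Cfp* was lost without CD45hi replicate 2 (FDR = 0.0525). Among the 4 adhesion GPCRs kept, 2 were called higher and 1 lower. *Cd97* was at 628, 578 and 332 cpm in CD45hi and 5.44, 32.5, 15.2 and 4.62 cpm in CD45lo libraries. Every CD45hi library was above every CD45lo library (log2 fold change 5.15 ± 0.56, glmTreat FDR = 2.26e-05), in contrast to *Gpr56* of the same family, though the counts of *Cd97* were not whole in any library. *Emr4*, another member, was at 5.45.

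**Figure D3:**
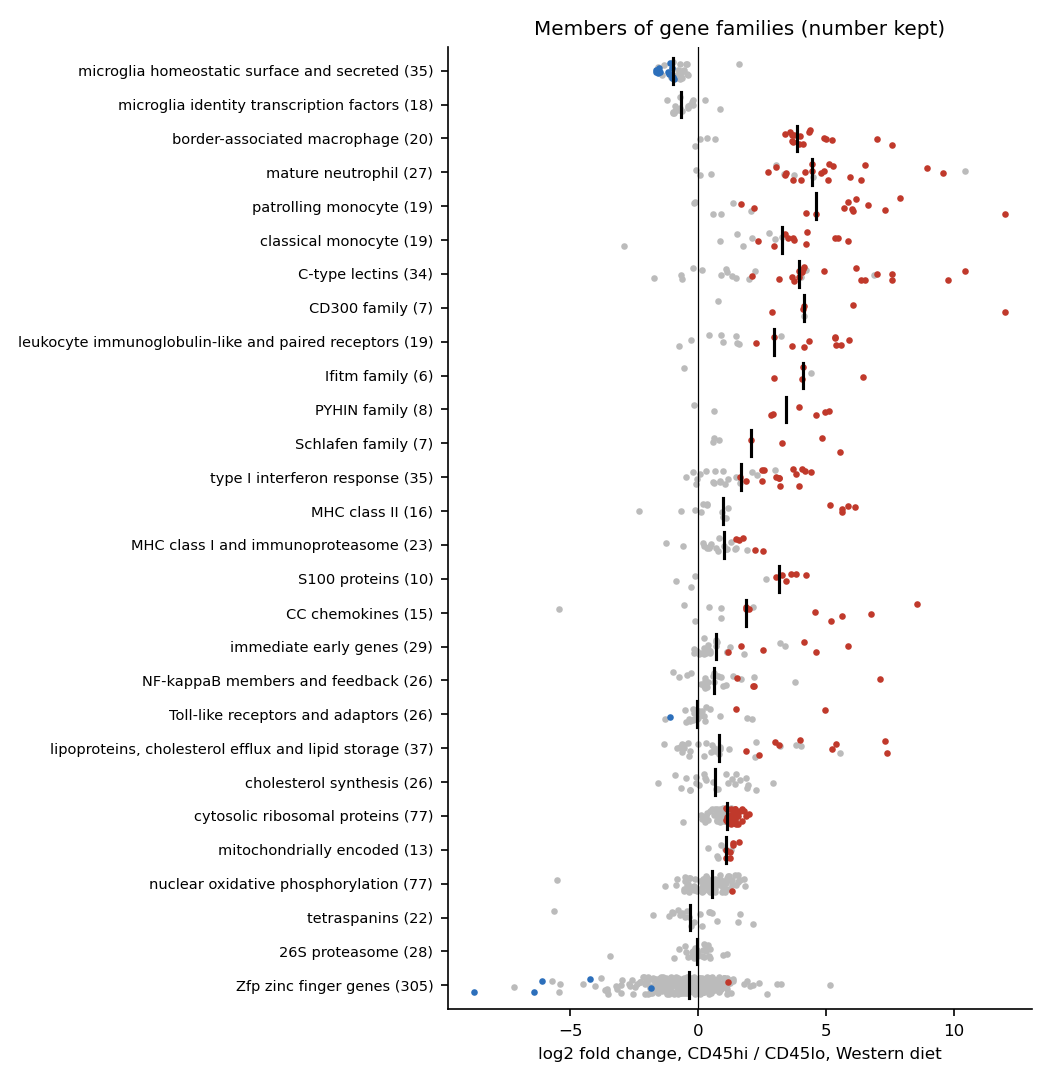
Log2 fold change of CD45hi over CD45lo cells on WD for each kept member of 28 gene lists, with the number kept in brackets (red, called higher; blue, called lower; grey, not called; black bar, median of the list). Microglial lists lie left of 0, with medians of -0.98 and -0.67, border macrophage, monocyte, neutrophil, lectin, CD300, Ifitm and PYHIN lists lie right of 0 with medians from 3.29 to 4.60, and tetraspanins, proteasome and Zfp genes lie around or just below 0.

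Adhesion and migration genes differed by member. Of 23 integrins kept, 3 were called higher and 1 lower (0 without CD45lo replicate 3, 2 with library totals). *Itga4*, a chain of the integrin VLA-4 by which leukocytes bind vessel walls, was at 632, 543 and 432 cpm in CD45hi and 16.6, 34.6, 24.9 and 18.2 cpm in CD45lo libraries. The groups were far apart and CD45lo libraries were low throughout (log2 fold change 4.51 ± 0.36, glmTreat FDR = 9.31e-07), though its counts were not whole in any of the 7 libraries. *Itgal*, a chain of LFA-1, was at 5.69, and the lower member *Itgb3* at -1.47. The call of *Itgb3* was lost without CD45hi replicate 1 or without CD45lo replicate 3 (FDR = 0.0554 to 0.0669). Among the 20 genes of selectins, their ligands and related adhesion molecules kept, 7 were called higher and 1 lower (2 without CD45hi replicate 1 or 3 or CD45lo replicate 2 or with library totals). The hyaluronan receptor *Cd44* was at 4.97 and the sialomucin *Cd164* at -1.03. Of 25 semaphorins, plexins and neuropilins kept, 3 were called higher and 1 lower (0 without CD45hi replicate 1 or CD45lo replicate 3 or 4, 2 without CD45hi replicate 2 or with library totals). *Plxnd1* and *Plxnc1* were at 5.28 and 4.00. None of the 22 genes kept of the tetraspanin list was called in either direction, and with library totals 2 were called lower. The list does not hold *Upk1b*, the tetraspanin called lower above. Their median was -0.32, with *Cd9* at -0.35, *Cd63* at 0.72 and *Cd81* at -0.43.

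S100 proteins, matrix genes and clotting factors included many genes higher in CD45hi cells. Of 10 S100 genes kept, 6 were called higher and none lower. These calcium-binding proteins act inside cells and, once released, as danger signals. *S100a11* was at 116, 119 and 131 cpm in CD45hi and 8.72, 10.3, 6.31 and 8.94 cpm in CD45lo libraries. Both groups were even and did not overlap (log2 fold change 3.83 ± 0.32, glmTreat FDR = 2.13e-06), with counts that were not whole in any library. *S100a6* was at 4.21, and the neutrophil proteins *S100a8* and *S100a9* at 3.05 and 3.43. Among the 10 annexin genes kept, 3 were called higher (1 with library totals) and none lower. Of 36 genes of MMPs, TIMPs and ADAMs kept, 5 were called higher and none lower. The metalloproteases *Adam19* and *Mmp8* were at 5.03 and 3.40. Among the 20 coagulation and fibrinolysis genes kept, 5 were called higher and none lower. *F13a1*, the A chain of coagulation factor XIII, was at 149, 377 and 273 cpm in CD45hi and 12, 39, 25.6 and 5.15 cpm in CD45lo libraries. The CD45lo libraries spread widely but stayed below every CD45hi library (log2 fold change 3.71 ± 0.52, glmTreat FDR = 0.000386). *Thbd* (thrombomodulin), which turns thrombin into an anticoagulant, was at 4.84, and the urokinase receptor *Plaur* at 2.97. Of 31 extracellular matrix and proteoglycan genes kept, 8 were called higher and 2 lower (1 without CD45hi replicate 2). The intermediate filament *Vim* was at 90.3, 127 and 157 cpm in CD45hi and 8.98, 32.9, 12.7 and 12.7 cpm in CD45lo libraries, without overlap (log2 fold change 2.89 ± 0.43, glmTreat FDR = 0.00082).

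Among the 29 NADPH oxidase and redox genes kept, 6 were called higher (3 without CD45lo replicate 1, 3 or 4 or with library totals) and none lower. *Cybb*, the catalytic subunit of the phagocyte NADPH oxidase that makes superoxide, was at 1172, 1185 and 1161 cpm in CD45hi and 48.7, 105, 52.9 and 32.4 cpm in CD45lo libraries. The CD45hi libraries were almost equal and far above the CD45lo libraries (log2 fold change 4.30 ± 0.38, glmTreat FDR = 2.71e-06). Glutathione reductase, *Gsr*, was at 3.25.

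Genes of lipid uptake, transport and storage included several that were higher in CD45hi cells. Of 37 genes of lipoproteins, cholesterol efflux and lipid storage kept, 9 were called higher and none lower (3 with library totals). The median was 0.81 on WD and 0.62 on chow, and the lowest interaction FDR of a member was 0.365 (glmQLFTest). *Cd36*, a scavenger receptor and fatty acid transporter, was at 115, 179 and 117 cpm in CD45hi and 0.721, 5.71, 5.16 and 2.88 cpm in CD45lo libraries. Every CD45hi library was far above the CD45lo libraries, of which replicate 1 was the lowest (log2 fold change 5.24 ± 0.53, glmTreat FDR = 1.19e-05). *Plin2*, which coats lipid droplets, was at 140, 62.5 and 85.6 cpm in CD45hi and 6.82, 15.4, 12.1 and 8.18 cpm in CD45lo libraries, without overlap (log2 fold change 3.17 ± 0.43, glmTreat FDR = 0.000328). The phospholipid transfer protein *Pltp* was at 2.98. The cholesterol exporter *Abca1* was at -0.55, not called. None of the 26 cholesterol synthesis genes kept was called in either direction. The median was 0.64, with *Hmgcs1* at 0.79 and *Sqle* at -0.08.

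Of 15 scavenger receptors kept, 5 were called higher and 1 lower. The modified-LDL receptor *Msr1* was at 4.19. Among the 22 iron and heme genes kept, 4 were called higher (2 without CD45hi replicate 2) and none lower. Of 44 genes of lysosomal enzymes and membrane proteins kept, 2 were called higher (0 without CD45hi replicate 1 or any 1 CD45lo library, 1 with library totals) and none lower (3 with library totals). The lysosomal protease *Ctsd* was at 0.01, not called. Among the 15 cathepsins kept, 1 was called higher (2 without CD45hi replicate 1, 0 without CD45hi replicate 2 or CD45lo replicate 1, 3 or 4 or with library totals) and 1 lower (0 without any 1 CD45hi library or any 1 CD45lo library, 3 with library totals). Of 29 glycolysis genes kept, 1 was called higher (3 without CD45hi replicate 2, 2 without CD45hi replicate 3 or CD45lo replicate 2) and 1 lower. The glucose transporter-like *Slc2a6* was higher, at 3.85, and *Slc2a5* lower. Among the 252 solute carriers kept, 4 were called higher and 5 lower (1 without CD45hi replicate 1 or CD45lo replicate 3, 2 without CD45lo replicate 1 or 2, 3 without CD45lo replicate 4, 10 with library totals). The median of the solute carriers was -0.16. None of the 33 potassium channels kept was called in either direction.

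Many genes of the ribosome and of the mitochondrial genome were higher in CD45hi cells, by small amounts. Among the 77 cytosolic ribosomal protein genes kept, 38 were called higher and none lower. 76 of the 77 had a positive log2 fold change, with a median of 1.15, and for 62 every CD45hi library was above every CD45lo library. The count varied from 8 with a replicate block by the numbers of the deposited files to 65 with DESeq2. It was 9 with library totals (median 0.83), 19 with a block by the numbers of the titles and 20 with limma-voom. Without CD45lo replicate 1 it was 24. *Rps24* was at 457, 446 and 317 cpm in CD45hi and 110, 107, 116 and 131 cpm in CD45lo libraries. The CD45lo libraries were within a narrow range and below every CD45hi library (log2 fold change 1.81 ± 0.20, glmTreat FDR = 0.000149). *Rps21* was at 210, 176 and 208 cpm in CD45hi and 43.1, 47, 54.6 and 54.6 cpm in CD45lo libraries, also without overlap (log2 fold change 1.99 ± 0.26, glmTreat FDR = 0.000719). The counts of 34 of the 38 called members were not whole in at least 1 library, and ribosomal protein genes have many processed pseudogenes that can share their reads. Of 13 mitochondrially encoded protein genes kept, 7 were called higher and none lower. *mt-Co1*, a subunit of cytochrome c oxidase, was at 15560, 16138 and 14369 cpm in CD45hi and 4920, 6823, 6486 and 5907 cpm in CD45lo libraries. Every CD45hi library was above every CD45lo library (log2 fold change 1.35 ± 0.10, glmTreat FDR = 1.63e-05). *mt-Nd6*, of complex I, was at 174, 128 and 140 cpm in CD45hi and 41.1, 51.5, 54.6 and 47.1 cpm in CD45lo libraries (log2 fold change 1.60 ± 0.22, glmTreat FDR = 0.00157), and the list's median was 1.08, or 0.77 with 3 calls with library totals. Among the 77 nuclear oxidative phosphorylation genes kept, 1 was called higher (2 without CD45hi replicate 1, 0 without CD45hi replicate 2 or CD45lo replicate 1, 2 or 4 or with library totals) and none lower. Their median was 0.54, below that of the mitochondrially encoded genes.

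None of the 28 26S proteasome genes kept was called in either direction. Among the 65 DnaJ and heat shock genes kept, 1 was called lower (0 without any 1 CD45hi library or any 1 CD45lo library) and none higher. None of the 42 histones kept was called in either direction. Among the 305 Zfp zinc finger genes kept, 1 was called higher (2 without CD45hi replicate 3, 0 without CD45lo replicate 1 or 2 or with library totals) and 5 lower (10 without CD45hi replicate 1 or 2, 11 without CD45hi replicate 3, 3 without CD45lo replicate 3 or 4, 12 with library totals). The medians of these 4 lists were -0.05, 0.19, -0.19 and -0.36, and with library totals they were -0.36, -0.13, -0.49 and -0.66, so the sign for the heat shock list depended on the scaling. Of 42 cell cycle genes kept, 4 were called higher (2 without CD45lo replicate 2 or 4, 1 without CD45lo replicate 3) and none lower. *Ccnd2*, a D-type cyclin, was at 4.61 and the proliferation marker *Mki67* at 2.93. The call of *Mki67* was lost without CD45lo replicate 3 (FDR = 0.0602).

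On the authors' TPM scale, which allows levels of genes to be compared, the 10 most abundant genes of each group were led by mitochondrial ribosomal RNA, the nuclear RNA *Malat1* and the predicted genes *Gm15662* and *Gm26924*. *Cst3* (cystatin C) had a mean of 9013 TPM in CD45hi and 21276 TPM in CD45lo libraries, and *B2m*, the light chain of MHC class I, 8465 and 7313 TPM. The CD45hi list also held lysozyme *Lyz2* at 6687 TPM and the ferritin chain *Fth1* at 4843 TPM, and the CD45lo list held *Ctss* at 7400 TPM. *Ctss* was at 4384, 4232 and 5242 TPM in CD45hi libraries. TPM is not scaled by TMM, so differences between groups in TPM need not equal the fold changes above.

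**Figure D4:**
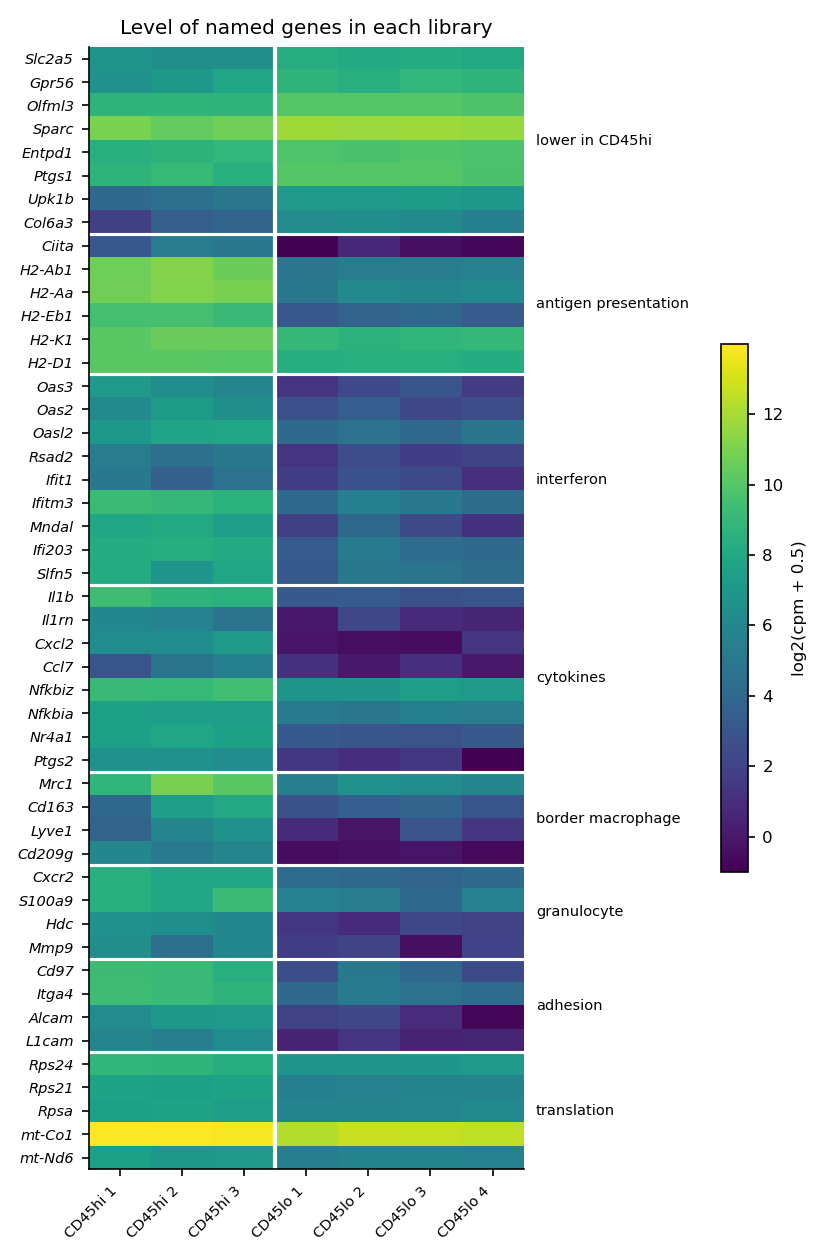
Level of named genes in each of the 7 WD libraries as log2(cpm + 0.5), in colour, with genes grouped by role and CD45hi libraries left of the white line. Genes of the group lower in CD45hi are brighter in the 4 CD45lo libraries and all other groups in the 3 CD45hi libraries, and within CD45hi the border macrophage genes *Mrc1*, *Cd163* and *Lyve1* are dimmest in replicate 1.

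In chow-fed mice the same comparison gave values of the same sign for 729 of the 775 genes called on WD, 595 of the 600 higher and 134 of the 175 lower. These genes were chosen on WD, so that their values on chow, with a median of 2.79 for the higher and -0.83 for the lower genes, are a description only. The interaction of diet and CD45 level, which tests whether the CD45hi to CD45lo difference itself depended on diet, was called for 1 of 14967 genes (0.00668%, edgeR glmQLFTest, FDR under 0.05), and without adjustment 1515 genes had p under 0.05. With DESeq2 188 genes were called, and the number was 0 with limma-voom. It was 4, 6 and 3 without WD CD45hi replicates 1, 2 and 3, 2 without chow CD45hi replicate 2 and 0 without chow CD45lo replicate 1 or 2. The called gene was *Trmt61a*, a tRNA methyltransferase subunit, with log2 fold changes of -5.45 on WD and 0.44 on chow (interaction -5.88 on the log2 scale, FDR = 0.0128).

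Several of the 12 lowest genes on WD were nearer to 0 on chow, without a call for the interaction. *Upk1b* had -2.59 on WD and -1.12 on chow (glmQLFTest interaction FDR = 0.283). *Rab39* had -2.13 and -0.15 (FDR = 0.304), *Rbm12b2* -2.56 and -0.54 (FDR = 0.348), and *Chic2* -1.99 and -0.33 (FDR = 0.409). The call of *Chic2* was lost without CD45hi replicate 1 or 2 or without CD45lo replicate 1, 2, 3 or 4 (FDR = 0.0622 to 0.119). *Slc2a5*, in contrast, had -1.65 on WD and -1.59 on chow. The family medians on chow stood close to those on WD for the homeostatic genes (-0.98 on WD, -0.92 on chow), border macrophages (3.85 and 3.71), interferon genes (1.67 and 1.62) and ribosomal proteins (1.15 and 1.02).

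**Figure D5:**
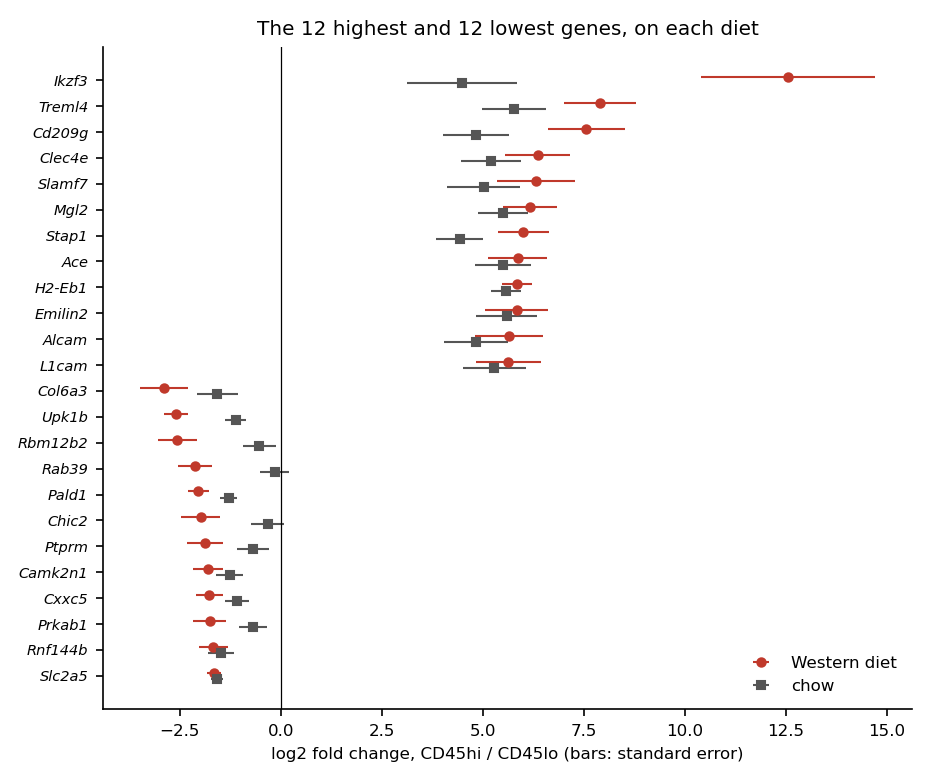
Log2 fold change of CD45hi over CD45lo cells on WD (red) and chow (grey) for the 12 highest and 12 lowest genes chosen on WD, with bars for the standard error. All 24 keep their sign on chow, with *Treml4* at 5.77 and *Rab39* nearest to 0 at -0.15, and the values on chow are in most genes nearer to 0.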

How the data were processed

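RNA was measured in 15 libraries of sorted brain myeloid cells, of which the 7 of WD-fed mice are compared here. RNA was extracted with TRIzol and miRNeasy columns, poly(A) libraries were made with TruSeq v2 reagents, and paired-end reads were obtained on either of 2 Illumina sequencers. Which library ran on which instrument, the annotation release and the use of strand in counting are not given in the sources used here. The authors trimmed reads with the NGS QC Toolkit and aligned them to mm10 with Bowtie2 inside RSEM, and the submitters' processing notes name RSEM 1.2.12 and bcl2fastq 2.18.0.12. The deposited values are estimated counts, in which reads that match several genes are split between them and need not be whole, and TPM, which scales each gene by its length and each library to the same sum, both per gene for 38924 genes.

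The estimated counts were rounded and genes that reached 1 cpm in 2 or more libraries were kept. With edgeR 4.0.16 in R 4.3.3 (TMM normalization, legacy quasi-likelihood form, 4 groups of diet and CD45 level), CD45hi and CD45lo cells on WD were contrasted by glmTreat at 1.5-fold, with Benjamini-Hochberg adjustment and FDR under 0.05 over all genes kept. The interaction with diet was tested by glmQLFTest. All tests were two-sided. Standard errors of log2 fold changes were derived from the quasi-likelihood F statistic. No pair of libraries of a group agreed within sampling noise. On WD the chi-square per degree of freedom of a pair was 132 to 141 among CD45hi and 24.8 to 50.4 among CD45lo libraries. The fit shared a single estimate of the spread of each gene over the 4 groups. Standard errors and FDRs therefore do not reflect the wider spread of CD45hi libraries. DESeq2 1.42.0 and limma-voom (limma 3.58.1) were alternatives, beside other filters, scalings and forms of the fit, a replicate block, and leaving out each library. The scripts were tested on simulated data. Counts per library limit the precision, and the floor of 3 counts covers counting error only. No test was made across the members of a list.

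The libraries compared, the 84 gene lists and the members named were chosen with earlier results of these data known. Of each list, the text names called members with the largest change in each direction whose higher group averaged 10 cpm or more and whose libraries did not overlap, those that the study did not discuss first, and gives the log2 fold change of other members. It also names the 12 highest and 12 lowest called genes whose higher group averaged 50 cpm or more, without overlap and not discussed by the study, the 10 most abundant genes by TPM, and genes called for the interaction. The defining markers given as counts were chosen afterwards. Coordinates are from GENCODE M21 (37607 identifiers matched) and promoters from RefSeq. Results for some genes are not reported here.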

Additional observations from a re-analysis of the deposited data

Results flagged for a closer look

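In 6 of 65 values given per library, 1 of the 4 CD45lo libraries on WD stood apart from the other 3 by Dixon's test, where chance gives about 1 in 20, or 3.2 of 65, and groups of 3 CD45hi libraries were not tested. CD45lo replicate 4 was high for *Cxcl2* at 1.97 cpm, against 0.22 to 0.393 cpm in the others. It was low for *Olfml3* at 883 cpm, against 1023 to 1050 cpm, and for *Ptgs1* at 807 cpm, against 1021 to 1063 cpm. CD45lo replicate 2 was high for *L1cam* at 1.93 cpm, against 0.878 to 0.985 cpm. It was also high for *Tlr8* at 8.01 cpm, against 1.11 to 2.14 cpm, and for *Vim* at 32.9 cpm, against 8.98 to 12.7 cpm.

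In the main fit *Trmt61a* was the 1 gene called for the interaction of diet and CD45 level (-5.88 on the log2 scale, edgeR glmQLFTest FDR = 0.0128). This call depended on the processing. No gene was called with limma-voom, the other quasi-likelihood form of edgeR or either replicate block. The same held when some single chow CD45lo libraries were left out. Levels of *Trmt61a* in single libraries are not given here.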

How the results depend on the processing

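Against 775 genes called on WD, 600 higher and 175 lower, glmQLFTest with a 1.5-fold limit set afterwards called 1335 (919 and 416), DESeq2 with the same limit 2296 (1403 and 893), and library totals, chosen after seeing the data, 751 (411 and 340). Of the distinct list members 328 were called, 493 with glmQLFTest and 659 with DESeq2. The replicate numbers were not used to pair the libraries in the main fit. The deviations of same-numbered WD libraries from their group means correlated at -0.022 to -0.004 for the numbers of the titles. They correlated at 0 to 0.013 for those of the files, and at 0.01 to 0.069 for chow libraries with either numbers. Differently numbered libraries were not compared, so these values cannot tell whether same-numbered libraries came from the same mouse. With the number of the titles as a replicate block, 398 genes (357 and 41) and 216 list members were called, and with that of the files 353 (320 and 33) and 193. Leaving out 1 library at a time gave 513 to 920 genes, 420 to 657 higher and 93 to 267 lower, and 245 to 355 list members. The interaction was called for 188 genes with DESeq2, 0 with limma-voom, the edgeR 4 form or either replicate block, and 0 to 6 without 1 library. Limma-voom, size factors, other filters, robust estimation, the edgeR 4 form, unrounded counts and a fit of the 7 WD libraries left the total within 1.5 times (598 to 929). Of 122 named genes that were called, none changed sign and 96 kept the call under every alternative. Some that were not called changed sign. With library totals *Ctsd* was at -0.31, *Isg15* at -0.24 and *Jun* at -0.07, *Isg15* at -0.01 and -0.02 with the replicate blocks of the titles and the files, while *Isg15* and *Sqle* with the edgeR 4 form and *Spi1* with the block of the titles crossed 0 by less than rounding (0.00). Without 1 library the log2 fold change ran from -0.38 to 0.05 for *Aif1*, -0.50 to 1.35 for *Alox5*, -0.03 to 0.04 for *Ctsd*, -0.04 to 1.47 for *Gbp2*, -0.39 to 0.03 for *Irf8*, -0.24 to 0.40 for *Isg15*, -0.42 to 0.04 for *Spi1*, -0.61 to 0.28 for *Sqle* and -0.20 to 0.04 for *Tlr7*. The cause of these changes was not tested.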
